A study of Mus musculus with 81 samples.

Results

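Histone H3.3 is placed into chromatin by dedicated chaperone systems, and the transcripts of 8 mouse genes that encode their parts were followed here: Hira, Ubn1, Ubn2 and Cabin1 (the HIRA complex), Asf1a and Asf1b (the ASF1 histone donors), and Daxx and Atrx (the DAXX-ATRX pair). The genes were chosen by name. All 8 were found in every library and passed the filter on low counts in all 5 experiments, out of 54079 genes listed in every library. On GRCm38 (GENCODE annotation) they lie at chr16:18877037-18970309 (Hira), chr16:5050057-5086289 (Ubn1), chr6:38433950-38524825 (Ubn2), chr10:75646112-75764341 (Cabin1), chr10:53596757-53609225 (Asf1a), chr8:83955507-83970197 (Asf1b), chr17:33909414-33915590 (Daxx) and chrX:105797615-105929403 (Atrx), with Cabin1 and Atrx on the minus strand.

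H3.3 differs from the replication-coupled histones H3.1 and H3.2 in that it can be deposited outside S phase. HIRA, with its partners UBN1 or UBN2 and CABIN1, deposits H3.3 at active genes and promoters, DAXX with the chromatin remodeller ATRX deposits it at telomeres, pericentric repeats and silenced elements, and ASF1A and ASF1B hand H3-H4 dimers to HIRA and to the replication-coupled factor CAF-1. Macrophages keep transcribing and exchanging histones after they stop dividing, so replication-independent deposition matters in this cell type. In these mice both genes of the cargo itself are targeted for deletion in myeloid cells. The question addressed here is whether the transcripts of the genes that handle H3.3 differ between conditional knockout and control macrophages. These transcripts were also followed over differentiation, after interferon and in other genotypes.

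RNA was measured in 81 libraries, 79 of which have a group from their labels (27 groups). WT mice carried floxed alleles of both H3.3 genes (H3f3a fl/fl H3f3b fl/fl) without cre, and cKO mice carried the same alleles with LysM cre/cre, which drives cre from both copies of the Lyz2 gene in myeloid cells. All mice were on a C57BL/6 background, 8 to 10 weeks old and of both sexes. The groups were bone marrow-derived macrophages (BMDM) of WT and cKO on days 3, 5 and 7 of culture (n = 3 each), day 8 BMDM untreated or given IFNγ for 12 h (WT n = 3, cKO n = 2), resident peritoneal macrophages (n = 3), BMDM grown to day 6 with no antibody, an isotype control antibody or a blocking antibody to the type I interferon receptor IFNAR1 at 10 µg/mL (n = 3), and 3 sets of WT and cKO BMDM together with cKO mice that also lacked Sting, Mavs or Irf7 (cKO:StingKO, cKO:MavsKO and cKO:Irf7KO, n = 3 each). No label ties a set to a double KO, so each double KO was compared with the mean of the 3 cKO sets. Its difference from them cannot be told apart from a difference between sets. The counts of set 3 and cKO:Irf7KO listed 54146 genes, and those of the other sets and double KOs 55536. The genes they share were used. Whether this ties set 3 to cKO:Irf7KO was not tested. The labels call the replicates biological but name no mice, so p-values measure the spread between these libraries.

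Counts assigned to genes ranged from 3614967 to 45581528 per library. The deletion was seen in the counts as follows. H3f3a in cKO was between 6.95% and 27.3% of WT in the 12 comparisons of cKO with WT, and it fell in each of them. Lyz2, which carries cre on both copies, was at or below 0.271% of WT. H3f3b counts in cKO were 11.5% to 13.3% of WT in the 3 antibody arms but 75.0% to 89.5% of WT in the other 9 comparisons, none of which passed the test alone. The paper floxed 1 exon of H3f3a, so a count over that whole gene also holds reads outside the floxed part. For H3f3b the floxed part spans all exons. The paper calls H3f3b deletion variable, complete in some cKO samples and partial in others. The source of the remaining H3f3b counts was not tested. The 7 macrophage markers other than Lyz2 were detected in every group, and their summed level (CPM, counts scaled to the size of the library) was 2805 or higher in every library but 1. The exception was replicate 1 of IFNγ-treated cKO, at 1166 CPM, which was also the smallest library and had 57.1% of its fragments unmapped, against at most 18.4% in the other libraries. Fold changes of IFNγ-treated cKO are therefore given with and without it. Without it that group holds 1 library, which is assumed to vary like the others, and differences between IFNγ effects were not refitted.

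Levels of different genes were compared as CPM per kb of exon not shared with another gene, since transcript lengths differ. On this scale Ubn1, Asf1b and Daxx were the most abundant members: Daxx ranked first in 9 of the 27 groups, Asf1b in 12 and Ubn1 in 6. Median levels over the groups were 21.4 CPM per kb for Asf1b, 19 for Daxx, 14.1 for Ubn1, 7.88 for Cabin1, 7.46 for Atrx, 5.49 for Asf1a, 3.57 for Ubn2 and 2.52 for Hira. Hira was the lowest in 25 groups. That level rests on few reads: 44.7% of the Hira exon bases are shared with the same-strand gene Gm28539, which was listed at 0 counts in all 79 libraries, and reads that fall on both genes are assigned to neither. Likewise 48.1% of the Asf1a exon bases lie opposite Mcm9, and the counts used here ignore strand. The number of counts per library was 9 to 426 for Hira and 7 to 632 for Asf1a, against 122 to 7618 for Atrx.

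**Figure D1:**
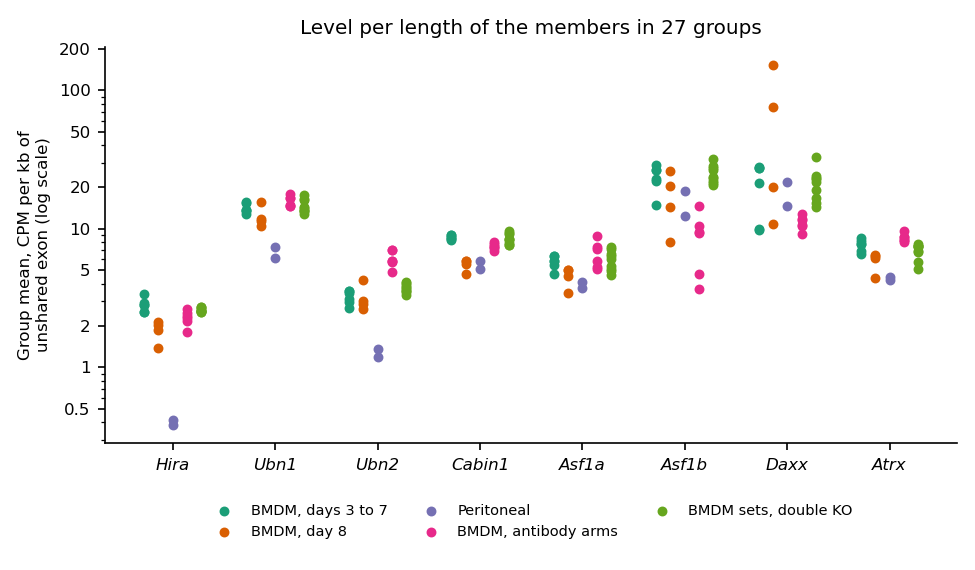
Group mean level of each member in the 27 groups, as CPM per kb of unshared exon on a log scale, with 1 point per group and a color for each experiment. Experiments were normalized separately. Daxx and Asf1b spread most widely, and Hira lies lowest in 25 groups.

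The members also differed in how much they moved. Daxx group means in BMDM ran from 28.9 CPM (cKO with control antibody) to 480 CPM (cKO with IFNγ), a 16.6-fold range, and Asf1b from 8.63 CPM (cKO with control antibody) to 75.1 CPM (cKO of set 1), an 8.70-fold range. The other 6 members ranged over 1.70-fold (Ubn1) to 2.68-fold (Ubn2). These ranges span experiments that were normalized separately. After centring within each experiment, the SD of the group means (log2) was 0.709 for Daxx and 0.465 for Asf1b, at the 95.7th and the 86.0th percentile of 9749 expressed genes. It was 0.0966 for Cabin1, at the 0.903rd percentile, and lay between the 9.34th and 41.9th percentile for the remaining 5. In peritoneal macrophages, normalized apart from the BMDM, Hira was at 1.31 to 1.42 CPM and Ubn2 at 25.5 to 28.7 CPM as group means, below each of their 25 BMDM group means (4.70 to 11.6 CPM for Hira and 56.4 to 151 CPM for Ubn2). Tissue and experiment cannot be told apart in this contrast, nor can the library kit, since the methods give a SMART-Seq low-input kit for peritoneal cells where the labels give rRNA depletion for all libraries.

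Daxx encodes the H3.3-specific chaperone that also sits in PML nuclear bodies, and its transcript was the member that most often differed between cKO and WT. On day 3 Daxx was at 35.6, 29.0 and 29.1 CPM in the WT libraries and at 86.2, 83.6 and 91.7 CPM in the cKO libraries. On day 5 it was at 34.6, 28.4 and 29.6 CPM in WT and at 153, 51.9 and 56.7 CPM in cKO. The groups did not overlap on either day. Daxx rose in cKO by 1.48 ± 0.35 (log2 fold change ± SE) on day 3, (adjusted p = 0.014 by the quasi-likelihood test of edgeR), and by 1.49 ± 0.35 on day 5 (adjusted p = 0.028). It was the single member called on each day, beside 8.65% of all genes called on day 3 and 3.12% on day 5. In bulk RNA, more RNA per cell and a larger share of cells with the transcript cannot be told apart. On day 7 WT Daxx had risen and its libraries, at 103, 55.8 and 44.3 CPM, overlapped those of cKO at 102, 77.3 and 83.0 CPM. The overlap came from WT replicate 1 alone, and the other WT libraries lay below every cKO library. The difference was 0.37 (95% interval -0.35 to 1.09, adjusted p = 0.62). No member was called on day 7 by edgeR or by DESeq2, none had an unadjusted p under 0.05, and 1.82% of all genes were called.

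The day 3 call did not hold without WT replicate 2 (log2 fold change 1.41, adjusted p = 0.062). The day 5 call did not hold without WT replicate 1 (1.58, adjusted p = 0.066), WT replicate 2 (1.44, adjusted p = 0.12), WT replicate 3 (1.47, adjusted p = 0.12) or cKO replicate 1 (0.82, adjusted p = 0.18), and cKO replicate 1 was the library with the highest Daxx level of that day. A fit of the day 5 libraries alone also lost it (1.496, adjusted p = 0.14). Markers of other cells moved on these days. B cell markers, 6 of 6 detected, were called higher in cKO in 5 of 6 on day 3, with sums of 30.3 to 42.2 CPM in WT and 59.5 to 96.7 CPM in cKO, and none was called on day 5. Neutrophil markers, 8 of 8 detected, summed to 1434 to 2933 CPM in WT and 2639 to 3743 CPM in cKO on day 3, with none called. On day 5 they summed to 513 to 625 CPM in WT and 514 to 1658 CPM in cKO, with 2 of 8 called higher. Stromal markers, with none called on either day, summed on day 5 to 14.4 to 46.6 CPM in WT and 66.0 to 99.6 CPM in cKO. The 1 mast cell marker tested was called higher on both days, and mast cell sums on day 3 were 0.172 to 0.813 CPM in WT and 1.46 to 2.05 CPM in cKO. Of 4 dendritic cell markers, 1 was called higher on day 3. The part of these markers in the Daxx result was not tested.

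Within WT, Daxx rose from day 3 to day 7 by 1.12 ± 0.35 (adjusted p = 0.029), the single member called among 24.5% of all genes. That call was lost without WT day 3 replicate 1 (1.21, adjusted p = 0.052), replicate 2 (1.07, adjusted p = 0.082) or replicate 3 (1.07, adjusted p = 0.082), in a fit of these groups alone (1.10, adjusted p = 0.073) and without WT day 7 replicate 1 (0.67, adjusted p = 0.13), the WT library with the highest Daxx of the series outside IFNγ. Within cKO the Daxx means on days 3, 5 and 7 were 87.2 ± 4.1, 87.1 ± 57 and 87.6 ± 13 CPM (SD, n = 3), and the day 7 to day 3 difference was 0.01 (interval -0.71 to 0.72). The change of the cKO effect from day 3 to day 7 was -1.11 ± 0.48 for Daxx with an adjusted p of 0.29, so a different effect on the 2 days was not established. No member was called for that change, at 0.0439% of all genes. Daxx alone had an unadjusted p under 0.05, and DESeq2 called none. The change from day 3 to day 5 called no member and 0% of all genes.

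The other steps of the time course called no member in the main edgeR fit: days 3 to 5 and days 5 to 7 in WT (2.90% and 0.150% of all genes), and days 3 to 5, 5 to 7 and 3 to 7 in cKO (4.89%, 0.0501% and 14.7%). The members with an unadjusted p under 0.05 numbered 2, 1, 1, 0 and 2 in that order, and DESeq2 called 1 in the second step, Daxx, and 0 in the others. Hira was lowest on day 7 in cKO, at 9.16, 8.72 and 8.07 CPM against 13.2, 10.8 and 10.8 CPM on day 3, a difference of -0.43 ± 0.15 with an adjusted p of 0.067. Asf1b was at 56.1, 63.3 and 68.0 CPM on day 7 in cKO against 34.7, 32.6 and 36.8 CPM on day 3, a difference of 0.85 ± 0.32 with an adjusted p of 0.085. Fits of the compared groups alone called Asf1b higher in cKO for days 3 to 7 (0.86, adjusted p = 0.0021) and days 3 to 5 (0.85, adjusted p = 0.019).

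**Figure D2:**
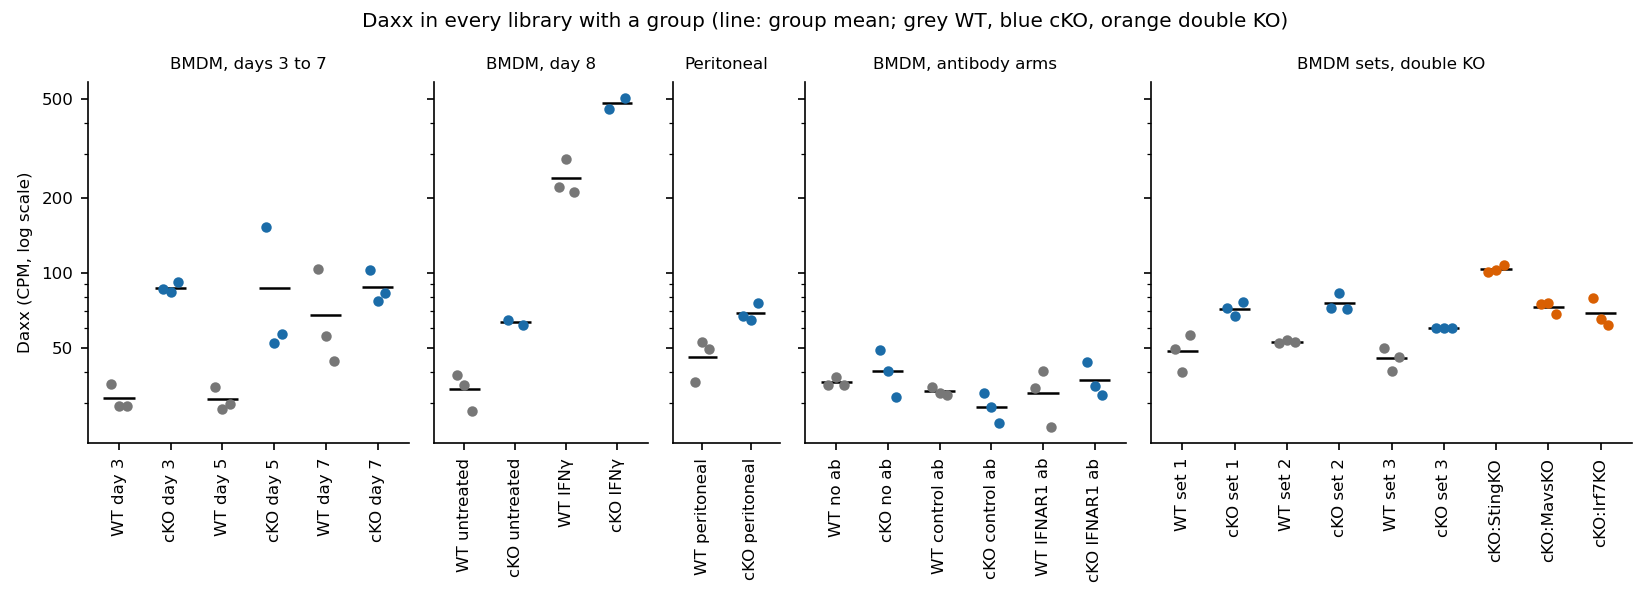
Daxx in each library that has a group, in CPM on a log scale, by experiment. Points are libraries and lines are group means, in grey for WT, blue for cKO and orange for double KO. The IFNγ libraries lie between 212 and 505 CPM, and cKO lies above WT without overlap on days 3, 5 and 8, in peritoneal macrophages and in the 3 BMDM sets.

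Within the time course, interferon genes were called higher in cKO on the days on which Daxx was. Of 25 genes on an interferon list, 25 were called higher in cKO on day 3, 24 on day 5 and 0 on day 7. Their median log2 fold change was 5.56, 3.39 and 0.62 on the 3 days, against 0.04, 0.01 and 0.01 over all genes tested. On day 7 the log2 fold change was still positive for 25 of 25. From day 3 to day 7 the list rose in WT, with 25 called higher and a median of 4.38. In cKO 0 were called over these days and the median was 0.06. Genes of the list were also called higher in cKO where the main fit did not call Daxx. They numbered 14 of 25 on day 8 untreated and 10 of the 24 tested in peritoneal macrophages.

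IFNγ, the interferon made by lymphocytes that activates macrophages, gave the largest Daxx difference. Untreated WT libraries held 38.9, 35.2 and 27.9 CPM of Daxx and IFNγ-treated WT libraries 222, 286 and 212 CPM. In cKO, 64.8 and 61.8 CPM untreated compared with 455 and 505 CPM after IFNγ. Daxx rose by 2.82 ± 0.17 in WT (adjusted p = 2.3e-06) and by 2.92 ± 0.21 in cKO (adjusted p = 1.6e-05), and the latter was 3.02 without cKO IFNγ replicate 1. The IFNγ effect did not differ detectably by genotype: the difference between effects was 0.10 with an interval of -0.47 to 0.68. IFNγ-treated cKO exceeded IFNγ-treated WT by 0.999 ± 0.18 (adjusted p = 0.017, and 1.10 with adjusted p = 0.0047 without cKO replicate 1). The call was lost without WT IFNγ replicate 1 (0.96, adjusted p = 0.058) or replicate 3 (0.92, adjusted p = 0.086) and in a fit of these groups alone (1.03, adjusted p = 0.15). Untreated cKO exceeded untreated WT by 0.90 ± 0.18 without overlap, with an adjusted p of 0.068, and was called in a fit of those groups alone (adjusted p = 0.0086).

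Of the 8 members, 3 were called for IFNγ in WT (Daxx and Ubn2 higher, Asf1b lower) where 38.9% of all genes were called, and 2 in cKO (Daxx higher, Asf1b lower) where 33.9% were. Without cKO IFNγ replicate 1 the cKO effect had 4 members called, with Ubn2 higher and Hira lower. Daxx was the single member called between the IFNγ-treated genotypes (5.48% of all genes). No member was called by edgeR between the untreated genotypes (0.658% of all genes), 1 had an unadjusted p under 0.05 and DESeq2 called 1, Daxx. For the difference between IFNγ effects edgeR called no member and 0% of all genes, no member had an unadjusted p under 0.05, and DESeq2 called no member. The IFNγ-treated and untreated comparisons share libraries with the comparisons of genotype.

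The promoter windows of Daxx are shown because it was the member with the widest range. RefSeq lists 3 Daxx start sites, and each window covers 250 bases before and 50 after a start (GRCm38.p6). The first window is printed 5′ to 3′ with a CCAAT box, read as ATTGG on this strand, in capitals. None of the 3 windows held the interferon-stimulated response element core (GAAA, any 2 bases, GAAA), the gamma-activated site TTCNNNGAA or the E2F motifs TTTCCCGC and TTTGGCGC on either strand. These motifs occur in 3.44%, 8.30%, 1.07% and 0.514% of 32851 mouse promoter windows of the same length. The absence says only that those letters are not in these bases.
Daxx, chr17:33909195-33909494, plus strand: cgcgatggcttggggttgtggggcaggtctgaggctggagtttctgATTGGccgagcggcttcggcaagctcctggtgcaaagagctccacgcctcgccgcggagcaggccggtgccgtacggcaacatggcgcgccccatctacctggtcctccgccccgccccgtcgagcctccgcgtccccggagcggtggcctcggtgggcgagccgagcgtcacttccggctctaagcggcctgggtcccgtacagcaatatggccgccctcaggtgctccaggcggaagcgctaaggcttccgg

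In peritoneal macrophages Daxx was at 36.3, 52.5 and 49.2 CPM in WT and 66.8, 64.7 and 75.7 CPM in cKO. The groups did not overlap, but the difference of 0.58 ± 0.18 had an adjusted p of 0.28. No member was called by edgeR or DESeq2 in peritoneal macrophages (1.06% of all genes), and 1 had an unadjusted p under 0.05. T cell markers, 4 of 4 detected, summed to 1.57 to 5.75 CPM in WT and 7.21 to 19.5 CPM in cKO, and their part in the difference was not tested.

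In the antibody experiment Daxx was not called between genotypes, although interferon genes were. With no antibody it was at 35.3, 38.0 and 35.2 CPM in WT and 49.0, 40.3 and 31.7 CPM in cKO, overlapping groups with a difference of 0.16 (interval -0.24 to 0.56). It was -0.20 (-0.61 to 0.21) in the control antibody arm and 0.18 (-0.22 to 0.58) in the IFNAR1 antibody arm. Of the interferon list, 24 of 25 genes were called higher in cKO with no antibody, 22 in the control arm and 14 in the IFNAR1 arm. No member was called between genotypes by edgeR or DESeq2 in any of the 3 arms, where 8.16%, 5.11% and 0.698% of all genes were called. The members with an unadjusted p under 0.05 numbered 0, 0 and 2.

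Daxx was called higher in cKO in each of the 3 BMDM sets. The WT libraries held 49.3, 39.7 and 56.2 CPM in set 1, 52.2, 53.4 and 52.5 CPM in set 2 and 49.6, 40.1 and 46.0 CPM in set 3. The cKO libraries held 71.8, 66.9 and 76.2 CPM, then 72.1, 82.7 and 71.4 CPM, and then 59.8, 60.0 and 59.9 CPM. No set overlapped between genotypes. The rise was 0.57 ± 0.10, 0.52 ± 0.10 and 0.40 ± 0.10 in the 3 sets and 0.50 ± 0.06 over their mean (adjusted p = 2.5e-07), and leaving out any single library kept each set's call. Of the 8 members, 4 were called in set 1 (34.6% of all genes), 1 in set 2 (21.9%), 3 in set 3 (35.9%) and 3 over the mean (47.8%).

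Markers of other cells also differed between the genotypes of the sets, and their part in the Daxx difference was not tested. Dendritic cell markers were called higher in cKO in 4, 3 and 4 of 4 in sets 1, 2 and 3, with sums of 1.18 to 4.81 CPM in WT and 3.79 to 13.2 CPM in cKO, and none was at 0 in a group. Neutrophil markers were called higher in 5, 2 and 5 of the 7 tested. In sets 1 and 3 they summed to 61.0 to 126 CPM in WT and 190 to 330 CPM in cKO. In set 2 the sums overlapped, at 91.1 to 162 CPM in WT and 149 to 166 CPM in cKO. There 3 of 7 had a positive log2 fold change, with a median of -0.07. B cell markers were called higher in 4, 2 and 3 of 6 and lower in 1, 0 and 1. Their sums were lower in cKO of set 1 (42.0 to 62.7 CPM against 113 to 191 CPM in WT). The same held in set 3 (41.8 to 62.4 CPM against 99.0 to 202 CPM). In set 2 they were higher in cKO (33.1 to 38.4 CPM against 18.1 to 24.0 CPM). Macrophage markers were called lower in 4 of 8 in each set, Lyz2 included, and higher in 1, 0 and 1 of 8 in sets 1, 2 and 3. The 7 markers other than Lyz2 summed to 3976 to 6957 CPM in WT and 4492 to 5190 CPM in cKO.

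Loss of Sting, the adaptor of the cytosolic DNA-sensing pathway, went with still more Daxx. The cKO:StingKO libraries held 100, 103 and 107 CPM of Daxx, above all 9 cKO libraries of the sets, a rise of 0.59 ± 0.08 (adjusted p = 8.6e-06). Daxx was 74.8, 75.7 and 68.3 CPM in cKO:MavsKO and 79.2, 65.3 and 61.5 CPM in cKO:Irf7KO. Both overlapped the cKO libraries, with differences of 0.09 (interval -0.09 to 0.26) and 0.00 (-0.17 to 0.17). Mavs is the adaptor of RNA sensing and Irf7 a transcription factor that amplifies type I interferon. In cKO:StingKO the interferon list had 17 of 25 genes called higher and 0 lower, with a median of 0.54 against 0.02 over all genes tested. Isg15, a ubiquitin-like interferon product, was 1.12 ± 0.15 higher. Stromal markers, 5 of 5 detected, summed to 159 to 189 CPM in cKO:StingKO and 25.9 to 70.4 CPM in the cKO sets, and their part in the differences was not tested. They were called higher in 4 of 5 in cKO:StingKO, and in 5 of 5 in cKO:MavsKO (81.6 to 284 CPM). The 3 double KO comparisons share the same cKO libraries.

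**Figure D3:**
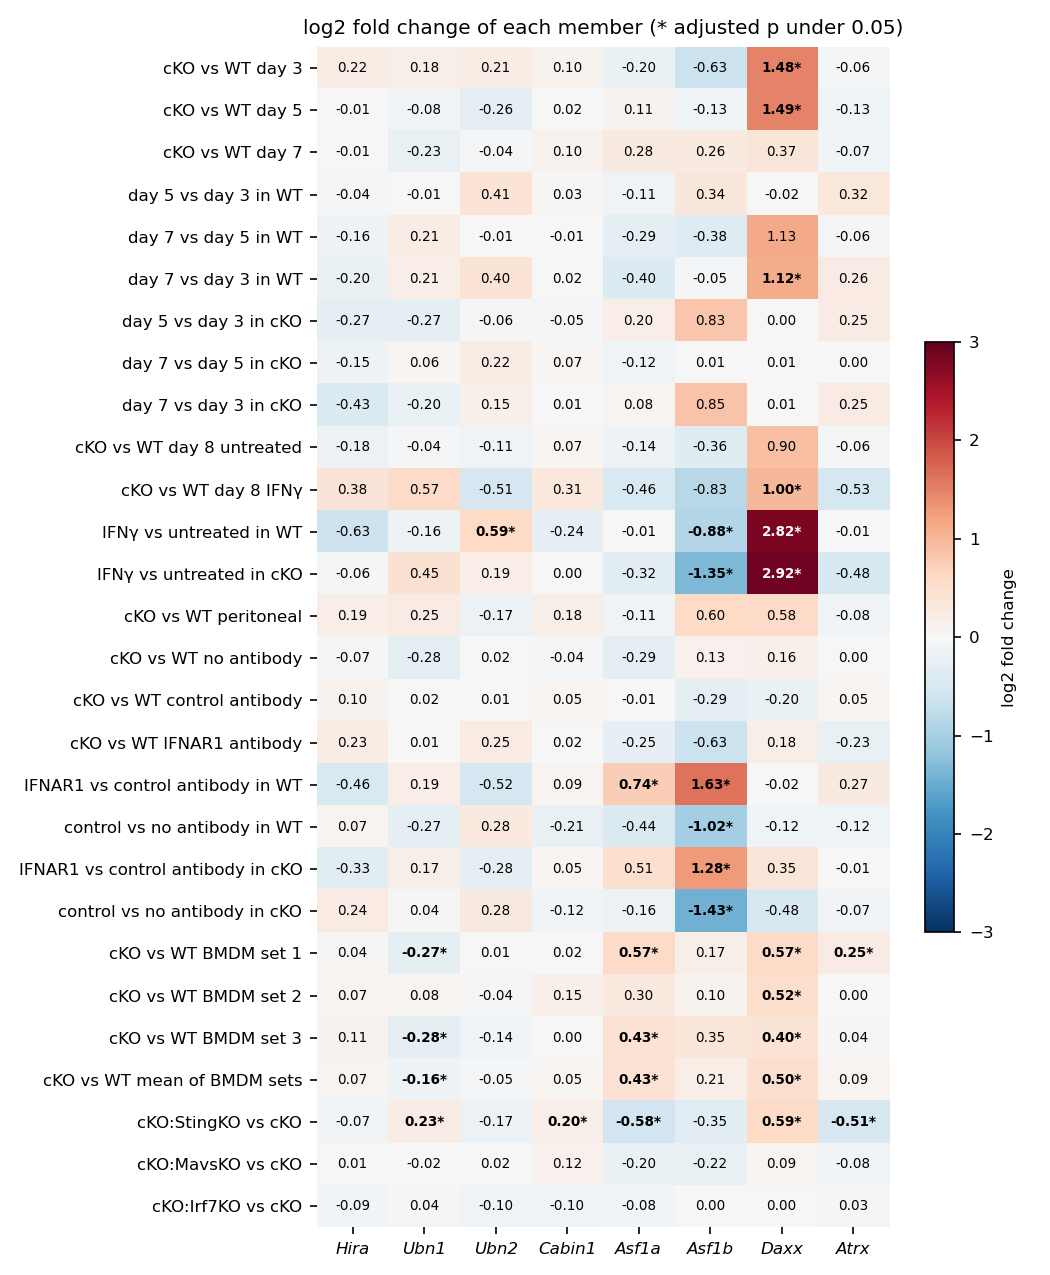
Log2 fold change of the 8 members (columns) in the 28 comparisons of groups (rows), first-named group over second. The color runs from blue (lower) to red (higher), and an asterisk marks an adjusted p under 0.05. Daxx and Asf1b carry the largest values, and Hira carries no asterisk.

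Asf1b encodes the ASF1 paralogue that is linked to proliferation. In the main edgeR fit it was called for treatments and not between cKO and WT. Some alternative edgeR fits called it between genotypes. It was higher in cKO of set 3 without WT replicate 2 (0.72, adjusted p = 0.0074). It was lower in IFNγ-treated cKO without a filter on low counts (-0.94, adjusted p = 0.026). With the filter and without cKO IFNγ replicate 1 that difference was -0.89. In a fit of its groups alone it was lower in cKO:StingKO (-0.36, adjusted p = 0.0014). On day 3 it was at 67.7, 55.2 and 38.7 CPM in WT and 34.7, 32.6 and 36.8 CPM in cKO, without overlap, but the difference of -0.63 ± 0.32 had an adjusted p of 0.25. A fit of those 6 libraries alone gave -0.66 with an adjusted p of 0.040, a call. On that day 0 of 25 replication-linked genes had a positive log2 fold change and 0 were called. After IFNγ it fell in WT by 0.88 ± 0.26 on the log2 scale, from 70.9, 41.6 and 71.6 CPM to 40.7, 22.0 and 37.5 CPM (adjusted p = 0.022). In cKO it fell by 1.35 ± 0.33, from 44.9 and 50.8 CPM to 19.9 and 17.9 CPM (adjusted p = 0.011, and 0.017 without cKO IFNγ replicate 1). Neither pair of groups overlapped. The WT call was lost without untreated replicate 1 (-0.78, adjusted p = 0.076) or 3 (-0.77, adjusted p = 0.080) or IFNγ replicate 2 (-0.65, adjusted p = 0.072), and the cKO call without untreated replicate 2 (-1.28, adjusted p = 0.057) or IFNγ replicate 2 (-1.29, adjusted p = 0.051).

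The antibody arms moved Asf1b in both genotypes. In WT it was at 27.9, 17.1 and 21.7 CPM with no antibody, 15.2, 9.05 and 8.5 CPM with the control and 36.9, 39.2 and 25.5 CPM with IFNAR1 antibody. In cKO it was at 25.1, 29.9 and 17.9 CPM, then 11.7, 7.58 and 6.63 CPM, and then 26.0, 23.6 and 15.5 CPM. The control antibody libraries lay below those of both other arms in each genotype. The IFNAR1 antibody and no-antibody libraries overlapped in each genotype. With control antibody against none, the log2 fold change of Asf1b was -1.02 ± 0.30 in WT and -1.43 ± 0.30 in cKO (adjusted p = 0.041 and adjusted p = 0.029). It was higher with IFNAR1 antibody than with control antibody by 1.63 ± 0.30 in WT (adjusted p = 0.0042) and 1.28 ± 0.31 in cKO (adjusted p = 0.026). The IFNAR1 and the no-antibody comparisons share the control antibody libraries. The IFNAR1 effect did not differ detectably by genotype (-0.35, interval -1.24 to 0.55). Markers of other cells moved with the arms, and their part in the Asf1b values was not tested. Stromal markers, 5 of 5 detected, summed in cKO to 181 to 343 CPM with control antibody, against 40.6 to 85.8 CPM with none and 42.6 to 94.0 CPM with IFNAR1 antibody, and 2 of 5 were called in each contrast. In WT their sums overlapped between arms. The 8 macrophage markers in WT summed to 7969 to 16366 CPM with none and 25978 to 26820 CPM with control antibody, and the 7 other than Lyz2 to 3398 to 4576 CPM over these arms.

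Between control and no antibody, Asf1b was the single member called in WT (9.74% of all genes) and in cKO (2.09%). Between IFNAR1 and control antibody, Asf1b and Asf1a were called in WT (11.2% of all genes) and Asf1b alone in cKO (4.68%). For the difference between IFNAR1 effects no member and 0% of all genes were called by edgeR, no member had an unadjusted p under 0.05, and DESeq2 called no member. The IFNAR1 call of Asf1b in WT held when any single library was left out but not in a fit of its groups alone (1.64, adjusted p = 0.059). The cKO call was lost in such a fit (1.30, adjusted p = 0.077) and without control antibody replicate 2 (1.21, adjusted p = 0.093) or 3 (1.12, adjusted p = 0.13) or IFNAR1 replicate 1 (1.12, adjusted p = 0.12) or 2 (1.22, adjusted p = 0.066). The decrease with control antibody in WT was lost without no-antibody replicate 1 (-0.82, adjusted p = 0.081), 2 (-1.18, adjusted p = 0.053) or 3 (-1.04, adjusted p = 0.098) or control replicate 2 (-0.89, adjusted p = 0.17) or 3 (-0.88, adjusted p = 0.15). In cKO it was lost without no-antibody replicate 1 (-1.41, adjusted p = 0.12) or 2 (-1.27, adjusted p = 0.12) or control replicate 2 (-1.36, adjusted p = 0.11) or 3 (-1.28, adjusted p = 0.17).

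**Figure D4:**
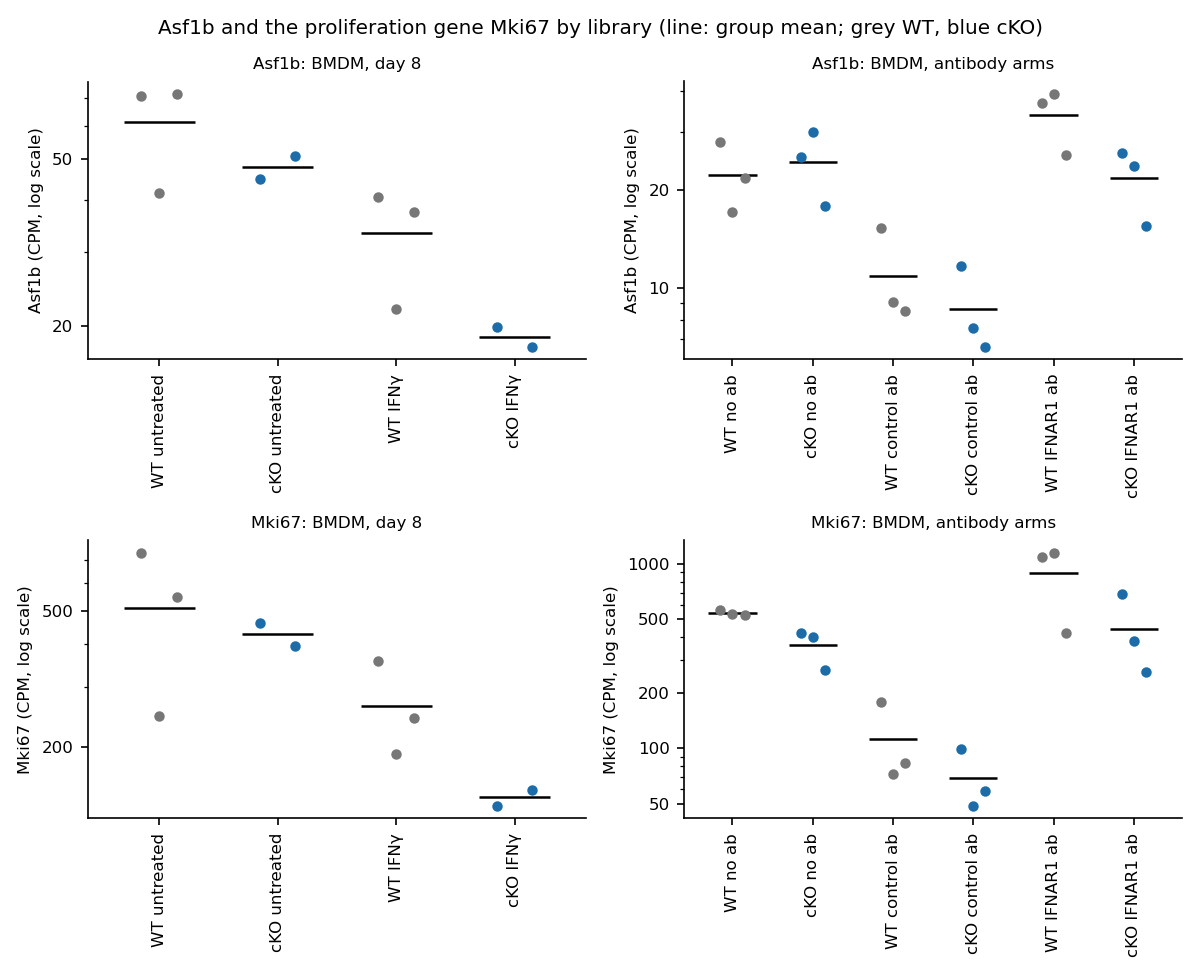
Asf1b (top) and the proliferation gene Mki67 (bottom) by library in day 8 BMDM (left) and in the antibody arms (right), in CPM on log scales. Lines are group means, with WT in grey and cKO in blue. Among the antibody arms both genes are lowest with control antibody, where Mki67 spans 48.9 to 179 CPM.

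Mki67, the gene of the proliferation antigen Ki-67, was called in the same direction as Asf1b in the antibody arms: it was 2.99 ± 0.45 higher with IFNAR1 than with control antibody in WT and 2.67 ± 0.45 in cKO, and changed by -2.28 ± 0.44 and -2.39 ± 0.44 with control against no antibody, all called. Of 25 replication-linked genes, 22 were called higher with IFNAR1 than with control antibody in WT and 16 in cKO. Their medians were 2.50 and 1.69 against 0.01 and 0.01 over all genes tested. Against no antibody, 18 were called lower with control antibody in WT and 7 in cKO. Sums of these genes with IFNAR1 antibody overlapped those with none. They were 1869 to 3364 against 1736 to 2148 CPM in WT, and 1099 to 2193 against 1274 to 1928 CPM in cKO. IFNAR1 against no antibody was not tested here. After IFNγ 9 were called lower in WT and 15 in cKO, with medians of -0.48 and -1.25. Without cKO IFNγ replicate 1 the cKO count was 15 and the median -1.55. Mki67 was called in cKO (-1.57 ± 0.43) and not in WT (-0.95 ± 0.35, adjusted p = 0.053), and Top2a, a topoisomerase of dividing cells, likewise in cKO (-1.45 ± 0.42) and not in WT (-0.23 ± 0.34). Neither gene was called for the difference between the IFNγ effects of the genotypes. Without that library Mki67 was -1.47 (adjusted p = 0.048) and Top2a -1.42 (adjusted p = 0.052), so the Top2a call was lost. The part of the number of dividing cells in the Asf1b values was not tested.

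The Asf1b promoter window is shown because promoters of cell cycle genes are known to carry CCAAT boxes and a cell cycle homology region (CHR, TTTGAA). Of the 8 members, Asf1b alone held both a CHR and CCAAT boxes. Its CHR starts 14 bases before the RefSeq start site, and 4 CCAAT boxes, read as ATTGG on this strand, start 200, 121, 79 and 39 bases before it. A CHR together with at least 1 CCAAT box was in 6.95% of the 32851 windows. At least 4 CCAAT boxes were in 1.06%, among them that of Atrx, and a CHR together with at least 4 in 0.195%. The cut-off of 4 equals the count in the Asf1b window, so percentages that use it do not test how rare that window is. CHR letters alone were in 17.9% of windows, Ubn2 included, and a CCAAT box in 37.4%. A match of letters is not evidence of binding. Both motifs are in capitals below, in GRCm38.p6.
Asf1b, chr8:83955444-83955743, plus strand: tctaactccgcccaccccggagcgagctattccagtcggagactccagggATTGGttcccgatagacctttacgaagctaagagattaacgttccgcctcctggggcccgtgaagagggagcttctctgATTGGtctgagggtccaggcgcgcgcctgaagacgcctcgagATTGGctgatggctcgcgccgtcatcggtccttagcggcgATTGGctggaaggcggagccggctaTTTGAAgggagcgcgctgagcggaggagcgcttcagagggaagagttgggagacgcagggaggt

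Asf1a, the paralogue that works with HIRA, was called higher in cKO in 2 of the 3 BMDM sets in the main edgeR fit. It was at 10.5, 11 and 6.55 CPM in WT and 13.7, 16.9 and 11.4 CPM in cKO of set 1, at 10.4, 9.02 and 9.81 CPM against 12.0, 11.3 and 12.7 CPM in set 2, and at 8.25, 10.6 and 11.4 CPM against 13, 13.7 and 13.8 CPM in set 3. The genotypes did not overlap in any set. The differences were 0.57 ± 0.16 (adjusted p = 0.0069), 0.30 ± 0.15 (adjusted p = 0.17) and 0.43 ± 0.16 (adjusted p = 0.035), and 0.43 ± 0.09 over the mean of the sets (adjusted p = 0.00031). In a fit of the set 2 groups alone the set 2 difference was called (0.32, adjusted p = 0.020). The set 1 call was lost in a fit of its groups alone (0.59, adjusted p = 0.066) and without WT replicate 3 (0.38, adjusted p = 0.056) or cKO replicate 2 (0.41, adjusted p = 0.065), and the set 3 call without WT replicate 1 (0.29, adjusted p = 0.20) or cKO replicate 1 (0.45, adjusted p = 0.050), 2 (0.42, adjusted p = 0.075) or 3 (0.41, adjusted p = 0.090).

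Sting loss went with less Asf1a. The cKO:StingKO libraries, at 8.22, 9.69 and 8.5 CPM, lay below all 9 cKO libraries, a log2 fold change of -0.58 ± 0.13 (adjusted p = 0.0015). In the time course, day 8 and peritoneal experiments the cKO difference of Asf1a ranged from -0.46 to 0.28 and was never called, the lowest value being -0.09 without cKO IFNγ replicate 1. In the antibody arms Asf1a was 0.74 ± 0.22 higher with IFNAR1 than with control antibody in WT (15.3, 22.6 and 12.3 CPM against 9.72, 9.90 and 10.2 CPM, adjusted p = 0.041) and 0.51 ± 0.22 in cKO (adjusted p = 0.22). The WT call was lost in a fit of its groups alone (0.76, adjusted p = 0.15), without a filter on low counts (0.78, adjusted p = 0.059), and without control replicate 1 (0.75, adjusted p = 0.11), 2 (0.74, adjusted p = 0.14) or 3 (0.76, adjusted p = 0.10) or IFNAR1 replicate 1 (0.80, adjusted p = 0.087) or 2 (0.47, adjusted p = 0.17).

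Among the HIRA complex genes, Ubn1 was called lower in cKO in sets 1 and 3 and over the mean of the sets, and higher in cKO:StingKO. UBN1 binds the H3.3-H4 dimer within the complex. In WT of set 1 it was at 140, 148 and 146 CPM and in cKO at 115, 116 and 128 CPM, a log2 fold change of -0.27 ± 0.06 (adjusted p = 0.0018). In set 3 it went from 142, 138 and 127 CPM to 108, 115 and 113 CPM, a log2 fold change of -0.28 ± 0.06 (adjusted p = 0.0015), and both calls held when any single library was left out. In fits of each set's groups alone both were lost (-0.26, adjusted p = 0.058, and -0.23, adjusted p = 0.062). Set 2 went the other way without passing the test (108, 102 and 106 CPM against 109, 117 and 108 CPM, 0.08 ± 0.06), and the WT libraries of set 2 lay below those of the other sets. Ubn1 was 0.23 ± 0.05 higher in cKO:StingKO (135, 131 and 136 CPM, adjusted p = 0.0014) than in the cKO sets, above all 9 of their libraries. Against set 1 alone that difference was 0.16 with an adjusted p of 0.075.

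**Figure D5:**
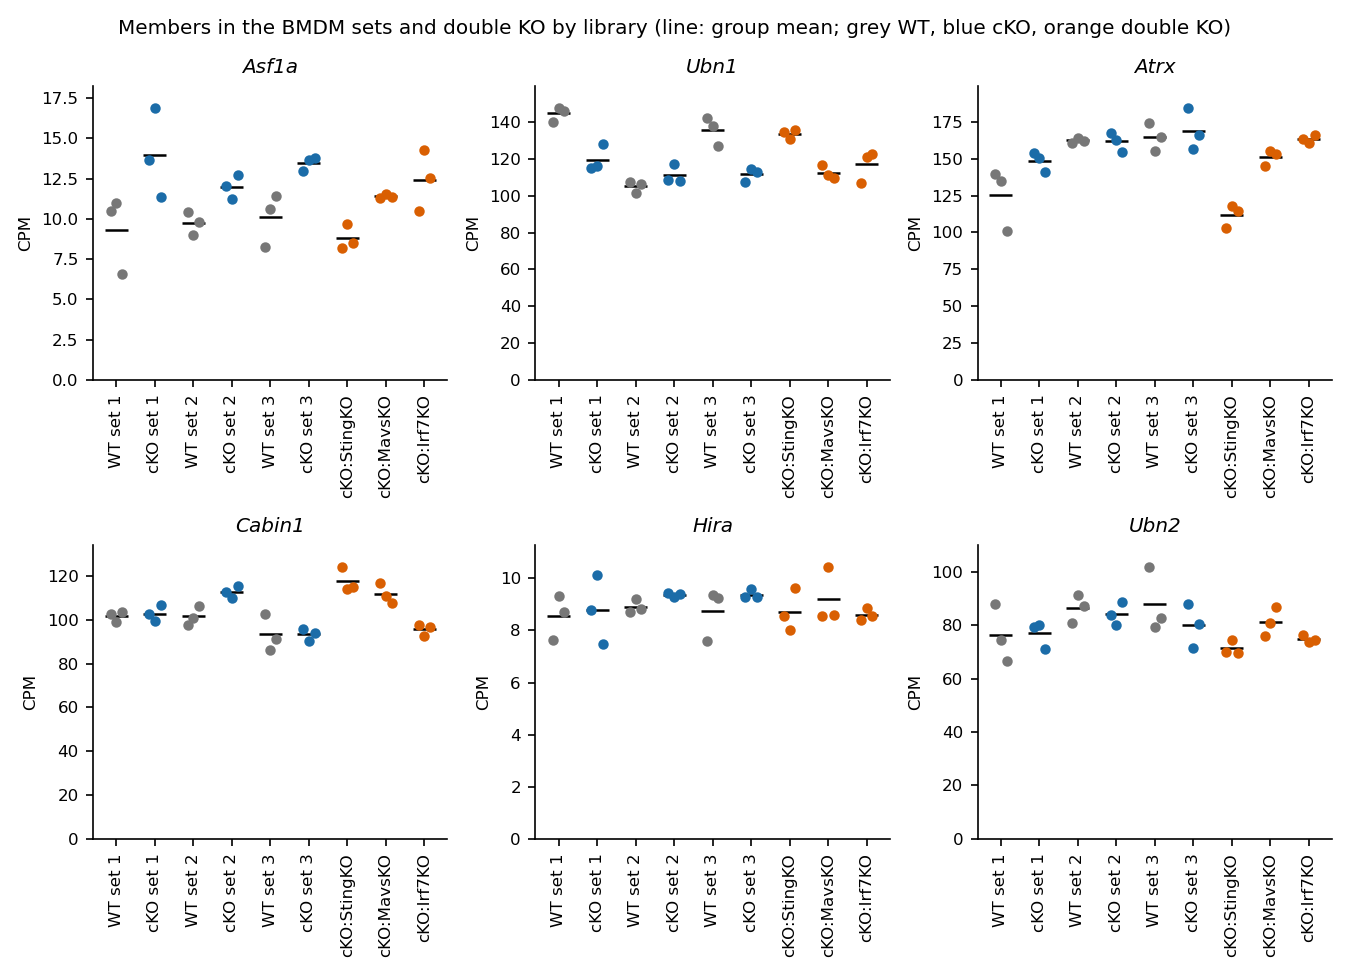
Asf1a, Ubn1, Atrx, Cabin1, Hira and Ubn2 by library in the BMDM sets and the 3 double KO genotypes, in CPM from 0. Lines are group means, with WT in grey, cKO in blue and double KO in orange. The cKO:StingKO libraries lie below every cKO library for Atrx and Asf1a and above every cKO library for Ubn1.

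Atrx, the remodeller that works with DAXX, did not share the Daxx pattern. In cKO:StingKO it was at 103, 118 and 114 CPM against 141 to 185 CPM in the 9 cKO libraries, a log2 fold change of -0.51 ± 0.08 (adjusted p = 1.7e-05), while Daxx rose in the same libraries. In set 1 Atrx was 0.25 ± 0.09 higher in cKO (154, 151 and 141 CPM against 140, 135 and 101 CPM, adjusted p = 0.035), a call lost in a fit of its groups alone (0.26, adjusted p = 0.16), without a filter on low counts (0.26, adjusted p = 0.050), and without WT replicate 3 (0.12, adjusted p = 0.26) or cKO replicate 1 (0.22, adjusted p = 0.10) or 2 (0.24, adjusted p = 0.084). In sets 2 and 3 the difference was 0.00 (interval -0.19 to 0.18) and 0.04 (-0.15 to 0.22). IFNγ left Atrx in WT at 136, 147 and 133 CPM against 142, 141 and 136 CPM untreated, a difference of -0.01 (-0.38 to 0.36). In IFNγ-treated cKO it was at 73.5 and 117 CPM, and the lower value is the library that stands apart. Against untreated cKO the difference was -0.48 ± 0.21, or -0.16 without it.

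Cabin1, which encodes a scaffold subunit of the HIRA complex, had the smallest SD of group means after centring within experiments. Before centring its BMDM group means ran from 57.0 CPM (WT with IFNγ) to 118 CPM (cKO:StingKO), a wider fold range than that of Ubn1. In the main edgeR fit it was called once, 0.20 ± 0.05 higher in cKO:StingKO (124, 114 and 115 CPM against 90.3 to 115 CPM in the cKO libraries, adjusted p = 0.0044). That difference was 0.06 (adjusted p = 0.48) against set 2 alone. Fits of the compared groups alone also called Cabin1 lower after IFNγ in WT (-0.25, adjusted p = 0.031) and higher in cKO of set 2 (0.16, adjusted p = 0.025). Ubn2, the UBN1 paralogue, was also called once in the main fit. It was 0.59 ± 0.20 higher after IFNγ in WT (80.6, 109 and 85.1 CPM against 59.9, 63.3 and 60.0 CPM, adjusted p = 0.043). The replicate numbers paired these libraries, and with the replicate block the adjusted p was 0.061. Without a filter on low counts it was 0.0502, so the call was lost in both. Leaving out any of the 6 libraries lost the call, with log2 fold changes of 0.44 to 0.65 and adjusted p of 0.060 to 0.16. In IFNγ-treated cKO Ubn2 was at 47.0 and 81.3 CPM against 62.3 and 50.5 CPM, a difference of 0.19 ± 0.25, or 0.55 with an adjusted p of 0.032 without cKO IFNγ replicate 1.

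Hira, the gene of the complex's central subunit, was called in none of the 32 comparisons in the main edgeR fit. Its cKO difference was between -0.18 and 0.23 outside IFNγ, with the narrowest interval over the mean of the BMDM sets (0.07, -0.06 to 0.21). With IFNγ it was 0.38 with cKO replicate 1, which holds 10.8 CPM, and -0.64 (adjusted p = 0.20) without it. After IFNγ Hira was at 4.28, 5.49 and 4.33 CPM in WT against 7.99, 6.89 and 6.90 CPM untreated. The groups did not overlap, and the difference of -0.63 ± 0.36 had an adjusted p of 0.20. A fit of these groups alone called it (-0.65, adjusted p = 0.013). In cKO, IFNγ replicates 1 and 2 were at 10.8 and 2.94 CPM against 6.15 and 6.63 CPM untreated. Without replicate 1 the difference was -1.09 with an adjusted p of 0.012.

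In all, cKO:StingKO was the comparison with the most members called (5 of 8, with Daxx, Ubn1 and Cabin1 higher and Asf1a and Atrx lower), beside 36.4% of all genes. In cKO:MavsKO and cKO:Irf7KO no member was called by edgeR or DESeq2, beside 9.32% and 10.6% of all genes. The members with an unadjusted p under 0.05 numbered 1 and 0. H3f3a and H3f3b themselves differed by -0.91 ± 0.13 and -0.73 ± 0.14 in cKO:Irf7KO from the cKO sets, both called. Replication-linked genes in cKO:StingKO were called lower in 11 and higher in 1 of 25, with Mki67 at -0.50 ± 0.17.

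Other H3-H4 chaperones and assembly factors, 29 genes, were looked at beside the members. Pml, the scaffold of the nuclear bodies that hold DAXX, was 1.51 ± 0.27 higher in cKO on day 3 (120 ± 15 against 42.1 ± 1.3 CPM, SD, n = 3), and Spty2d1 and Chd2 were higher by 0.53 ± 0.13 and 0.47 ± 0.14. These were the 3 of 29 called on that day, and none was called on days 5 and 7. After IFNγ in WT 4 were called higher and 19 lower, with a median of -0.66 against -0.01 over all genes tested. Pml was higher by 2.19 ± 0.17, and the log2 fold changes of Tonsl, Mcm2 and the CAF-1 subunit gene Chaf1b were -1.46 ± 0.16, -2.14 ± 0.26 and -2.003 ± 0.26. In cKO 2 were called higher and 14 lower, and the same direction was seen for Pml (2.02 ± 0.21), Tonsl (-1.87 ± 0.21) and Mcm2 (-2.06 ± 0.32). Nap1l1 fell by 0.92 ± 0.15. Without cKO IFNγ replicate 1 the cKO counts were 7 higher and 19 lower, with Pml at 2.28, Tonsl at -1.97, Mcm2 at -2.32 and Nap1l1 at -1.03.

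Between antibody arms, genes of this list were called in WT and none in cKO. For the difference between the IFNAR1 effects, none of the 29 was called in either direction (median -0.15), so a difference between genotypes was not shown, and for control against no antibody it was not tested. With IFNAR1 against control antibody in WT 10 were called higher and 0 lower. Among them were the histone acetyltransferase gene Hat1 (1.12 ± 0.21), Chaf1b (1.32 ± 0.25), Dnajc9 (1.02 ± 0.22) and Rbbp7 (0.72 ± 0.16). With control antibody in WT 4 were called lower (Chaf1b, Dnajc9, Hat1 and Anp32b). Over the mean of the BMDM sets 20 were called higher and 1 lower in cKO, with a median of 0.21 against -0.03 over all genes tested. The smallest adjusted p were those of the FACT subunit Supt16 (0.41 ± 0.05), Pml (0.29 ± 0.05), Mcm2 (0.68 ± 0.13) and Tonsl (0.44 ± 0.08). Set 1 (19 higher, 0 lower) and set 3 (14 higher, 1 lower) differed from set 2 (1 higher, 2 lower) in these counts, and the difference between sets was not tested. In cKO:StingKO 1 was called higher (Pml, 0.47 ± 0.07) and 15 lower, led by Nap1l1 (-0.97 ± 0.10), Supt16 (-0.50 ± 0.07) and Dek (-0.87 ± 0.12).

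The genes most like each member were ranked by Pearson's r of group means (log2 CPM, centred within each experiment) over the 27 groups, among 9749 genes. These r describe groups that share libraries and experiments and carry no test. Daxx was most like Rnf31 (r = 0.974), Snw1 (0.964) and Tor3a (0.961), and Asf1b was most like Esco2 (0.957), Cenpn (0.955) and Melk (0.955). The values were lower for Atrx with Dhx36 (0.921), Luc7l2 (0.896) and Smc6 (0.876), for Ubn1 with Khnyn (0.886), Kptn (0.863) and Stk11ip (0.854), and for Ubn2 with Klhl28 (0.882), Mosmo (0.861) and Snapc3 (0.842). They were 0.862, 0.859 and 0.853 for Asf1a with Mre11a, Tra2b and Uchl5, 0.841, 0.807 and 0.803 for Hira with Fam118a, Mafg and Ctu1, and 0.834, 0.832 and 0.809 for Cabin1 with Letmd1, Sympk and Arhgef1. No member was among the 3 genes most like another. Among the members the lowest r was -0.601, between Atrx and Ubn1.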

How the data were processed

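RNA-seq libraries were analysed from the gene counts that the authors deposited, 1 table per library. The labels give rRNA depletion for all libraries, and the methods give it for BMDM and a SMART-Seq low-input kit for peritoneal macrophages. Per the labels and methods, the authors trimmed reads with Cutadapt, aligned them to mm10 with STAR and took fragment counts per gene. The annotation release and the versions of Cutadapt and STAR are not given in the sources used here. The column without regard to strand was used. Lines that name no gene were left out: unmapped 1.69% to 57.1%, multimapping 5.82% to 17.5%, no feature 3.76% to 28.9% and ambiguous 3.16% to 6.23% of fragments.

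From these counts, edgeR 4.0.16 (R 4.3.3) was used for each of the 5 experiments: filterByExpr (minimum count 10, minimum total 15), TMM scaling, and the quasi-likelihood test with all groups of an experiment in 1 model and Benjamini-Hochberg adjustment over all genes tested. Calls are adjusted p values under 0.05. SE is the log2 fold change divided by the square root of F, and intervals are 95%. CPM are TMM-scaled within an experiment, so levels set side by side across experiments were normalized separately, and marker sums are unscaled. Alternatives were DESeq2 1.42.0, RLE scaling, other filters, fits of the compared groups alone, a replicate block, leaving out each library (comparisons of 2 groups without double KOs) and, for double KOs, each cKO set alone. The gene lists for IFNγ-treated cKO without replicate 1 were added after seeing the data. The fit was tested on simulated data. Counts on genes ran from 14419697 to 20220329 per library over the time course and from 3614967 to 9879339 on day 8. They were 7625225 to 23381318 for peritoneal, 5295144 to 34380735 for antibody-treated and 21504555 to 45581528 for set libraries.

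Members and lists were chosen with earlier results of these data known. All 8 members were named in every experiment, of the 29 other chaperones up to 4 called genes with the smallest adjusted p per comparison, of the interferon and replication lists Isg15, Mki67 and Top2a (a further gene of the rule is not reported here), and the 3 genes most like each member. Replicate numbers paired the libraries (every correlation of deviations over 0.1) in cKO against WT on days 3, 5 and 7, in peritoneal macrophages and in sets 1 and 3, in the cKO time steps, in IFNγ against untreated WT and in control against no antibody in WT. The lowest correlation of a pair there was 0.116. No replicates of a group agreed within sampling noise. Promoter windows came from RefSeq (GRCm38.p6), which matched 8 of 8 members. The 2 day 8 cKO libraries whose labels conflict on IFNγ entered no comparison.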

Additional observations from a re-analysis of the deposited data

Results flagged for a closer look

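In some comparisons every cKO library lay on 1 side of every WT library, and in another comparison on the opposite side. The differences between these effects were not tested. Groups of 2 or 3 libraries were not searched for a library that stands apart.

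Hira lay above WT on day 3 (log2 fold change 0.22) and in BMDM set 2 (0.073) and below WT on day 8 without IFNγ (-0.18). Ubn1 lay below WT on day 5 (-0.082), in set 1 (-0.27) and in set 3 (-0.28) and above WT in set 2 (0.083). Asf1a lay above WT in set 1 (0.57), set 2 (0.30) and set 3 (0.43) and below WT after IFNγ (-0.46), where cKO replicate 1 is the library with few mapped fragments and few macrophage marker counts. Without that library the Asf1a difference was -0.09. Atrx lay above WT in set 1 (0.25) and below WT with IFNAR1 antibody (-0.23) and after IFNγ (-0.53), the last being -0.22 without the same library.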

How the results depend on the processing

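Of 1576 member log2 fold changes under alternatives that kept all libraries, 1529 stayed on their side of the threshold or within their spread, 17 lost and 21 gained a call, 9 moved and 0 reversed. With 1 library left out these numbers were 1037, 49, 16, 18 and 0 of 1120. The causes were not tested. Counts of members called that moved by over 1.5 times were as follows (count as reported in parentheses). With only the groups compared they were 2 (1) on day 3, 0 (1) on day 5, 0 (1) for days 3 to 7 in WT, 1 (0) for days 3 to 5 and 1 (0) for days 3 to 7 in cKO, 1 (0) on day 8 untreated, 0 (1) on day 8 with IFNγ, 5 (3) for IFNγ in WT, 0 (2) and 0 (1) for IFNAR1 antibody in WT and cKO, 1 (4) in set 1 and 3 (1) in set 2. With DESeq2 they were 1 (0) for days 5 to 7 in WT, 1 (0) on day 8 untreated and 2 (1) in set 2. Without a filter they were 1 (0) on day 8 untreated, 2 (1) with IFNγ and 1 (2) for IFNAR1 antibody in WT, and with a mean of at least 1 CPM 2 (1) in set 2. Against set 3 alone cKO:MavsKO had 1 (0), and against set 2 alone cKO:Irf7KO had 1 (0), both Cabin1. Smaller moves were, with only the groups compared, 2 (3) in set 3 and 7 (5) in cKO:StingKO, which was 4 (5) against set 2 alone. Without a filter they were 2 (3) for IFNγ in WT and 3 (4) in set 1, and with DESeq2 3 (2) for IFNAR1 antibody in WT.

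Leaving out 1 library gave 0 to 1 on days 3 and 5, 0 to 2 for days 3 to 7 in WT, 1 to 2 for IFNγ in WT, 1 to 4 for IFNγ in cKO, 1 to 5 for IFNAR1 antibody in WT, 0 to 1 for IFNAR1 antibody in cKO and for control antibody in both genotypes, 2 to 4 in sets 1 and 3, and 1 in set 2. On day 8 with IFNγ it gave 0 to 7, the 7 being without cKO replicate 2, which leaves the library with 57.1% unmapped fragments alone in its group, assumed to vary like the other groups. In the other comparisons of 2 groups it gave 0. It was not run for the mean of the sets, the double KOs or the differences of effects.

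The replicate block changed 1 call where numbers paired the libraries, that of Ubn2 with IFNγ in WT (adjusted p = 0.061). Where they did not, the block gave 0 (1) members on day 8 with IFNγ and 3 (2) for IFNAR1 antibody in WT. For IFNγ in cKO, where same-numbered libraries correlated at -0.197, a crossed pairing chosen after seeing the data gave 3921 genes called, against 3696 with the block and 4436 without. The count of all genes called moved by over 1.5 times under some alternative in 26 of 32 comparisons. Hira and Asf1a rest on few counts (9 to 426 and 7 to 632 per library), and how far depth limited their calls was not tested.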

Other observations

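The 2 day 8 cKO libraries without a group, whose title and library name differ on IFNγ, held 9674853 and 10498769 counts. In unscaled CPM the first and the second held 10.4 and 3.71 of Hira, 115 and 75.0 of Ubn1, 80.5 and 87.4 of Ubn2, and 93.4 and 56.4 of Cabin1. They held 11 and 9.91 of Asf1a, 73.0 and 15 of Asf1b, 63.8 and 433 of Daxx, and 172 and 126 of Atrx.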
